A study of Mus musculus with 13 samples.

Results

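Tight junction genes were followed in squamous skin tumours of G9a cKO and G9a WT mice. Tight junctions seal the space between epithelial cells. Claudins and occludin span the membrane and set the barrier, junctional adhesion molecules sit beside them, and the zonula occludens proteins and cingulin tie the complex to actin from the inside. In epidermis the barrier sits in the granular layer, and several claudins are also made in the living layers below it, where they are known from adhesion and signalling as well. The members were 9 genes chosen by name: the claudin genes Cldn1, Cldn3, Cldn4 and Cldn7, the occludin gene Ocln, the adhesion molecule gene F11r (JAM-A), and the scaffold genes Tjp1 (ZO-1), Tjp3 (ZO-3) and Cgn (cingulin). Every probe set whose only gene symbol in the platform annotation was one of these names was taken, which gave 11 of the 45037 probe sets that are not array controls, for 9 of 17097 genes. Cldn1 and Cldn3 had a pair of probe sets each and the other genes 1. The rule itself uses names and no measured value.

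Each array held total RNA from a DMBA/TPA-induced squamous tumour of a G9a cKO (conditional knockout) mouse (n = 7) or of a G9a WT mouse (n = 6). G9a, encoded by Ehmt2, is a histone methyltransferase that acts on lysine 9 of histone H3. Mice of both genotypes received DMBA, a mutagen that starts tumours, and TPA, a phorbol ester that promotes them, on shaved back skin from an age of 8 weeks, with TPA continued for up to 20 weeks. The labels name neither the Cre driver, nor the cells in which the allele was deleted, nor the strain, and do not say whether each tumour came from its own mouse, so p-values concern the spread between these samples, which may be technical.

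Values are log2 expression after RMA, and array medians lay between 5.09 and 5.14. Within single arrays, values spread with an SD of 1.83 to 1.88 in the cKO group and 1.91 to 1.94 in the WT group. Of a pair of Ehmt2 probe sets, one read 6.01 ± 0.10 in cKO and 8.33 ± 0.19 in WT tumours (SD, n = 7 and 6, exact permutation p = 0.000583), and the other 7.42 ± 0.04 in cKO and 7.29 ± 0.19 in WT tumours (exact permutation p = 0.131). The first p is the smallest that this test can give. The test takes the arrays as separate readings, a premise that the mirroring described next does not meet. The labels do not say which of the Ehmt2 probe sets lies in the deleted part. Pairs of arrays that follow one another in the deposit mirrored each other around the mean of their group. These pairs were cKO replicates 2 and 3, 5 and 6, 8 and 9, and WT replicates 2 and 4, 6 and 7, 8 and 9. Their correlations of deviations ran from -0.953 to -0.881. WT arrays were paired from the first one. In the cKO group, with 7 arrays, the first rather than the last was left alone because the pairs then mirrored each other more. Each difference was therefore tested with limma both without and with a term for each neighbouring pair, called the pair term below, and "rose" or "fell" is used of a gene that passed both at an adjusted p of 0.05 over all probe sets. Without the pair term 47.9% of all probe sets passed (23.4% lower and 24.4% higher in cKO tumours), and with it 27% passed (13.1% lower and 13.9% higher). The 95% intervals given below come from the fit without the pair term. The nonspecific control probe sets, which measure background, had a median near 3.6 on every array (3.57 to 3.63) and an upper quartile of 4.29. No member value lay below the control median of its array. Array controls differed between the groups too: the 23 nonspecific ones by -0.31 to 0.08, and the 18 hybridisation controls by 0.06 to 0.49, with all 18 of these higher on cKO arrays. Any increase of up to 0.49 given below is no larger than the largest of these control differences.

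Ocln and Tjp1 fell in cKO tumours, F11r and 1 probe set of Cldn3 passed without the pair term only, and the other 7 probe sets did not pass. Occludin (Ocln) is a 4-pass membrane protein of the junction strand, and ZO-1 (Tjp1) is the scaffold that binds claudins, occludin and JAM-A at the cytoplasmic face. Of the 11 probe sets, 3 passed as lower and 1 as higher without the pair term. These counts stand against the 23.4% lower and 24.4% higher among all probe sets. The scale of the differences is set beside the arrays' own values in the plot of the members by array.

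**Figure D1:**
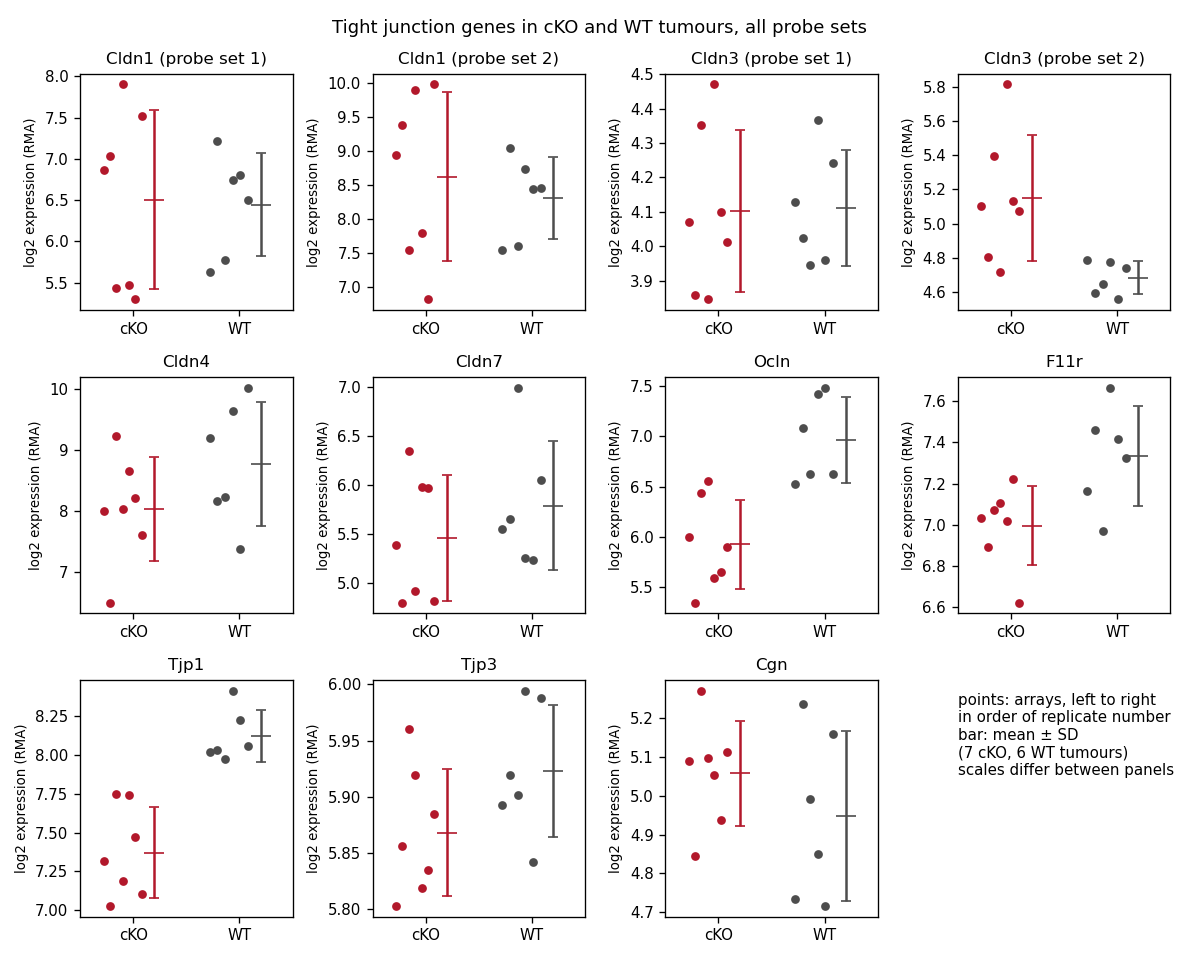
Log2 expression (RMA) of the 11 probe sets of the 9 tight junction genes in 7 cKO (left in each panel) and 6 WT (right) tumours, with points for arrays and bars for mean ± SD. For Tjp1 every cKO array (highest 7.75) lies below every WT array (lowest 7.98), and for Ocln 6 of 7 cKO arrays lie below the lowest WT array.

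The Ocln probe set (1448873_PM_at) read between 5.35 and 6.55 in cKO tumours, with a median of 5.90, and between 6.52 and 7.48 in WT tumours, with a median of 6.86. Of the 7 cKO arrays, 6 lay below the lowest WT array, and the groups overlapped through cKO replicate 5 (6.55) and WT replicate 2 (6.52). The means were 5.92 ± 0.44 in cKO and 6.96 ± 0.43 in WT tumours (SD, n = 7 and 6), a log2 difference of -1.04 (95% interval -1.53 to -0.54), or 2.05-fold lower. The limma adjusted p was 0.00238, and 0.0301 with the pair term.

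The Tjp1 probe set (1417749_PM_a_at) read 7.03 to 7.75 in cKO tumours, with a median of 7.31, and 7.98 to 8.42 in WT tumours, with a median of 8.05. It was the only one of the 11 probe sets whose groups did not overlap, a separation that 24.2% of all probe sets showed and 10.9% showed with the cKO arrays below. Its means were 7.37 ± 0.29 in cKO and 8.12 ± 0.17 in WT tumours, a log2 difference of -0.75 (95% interval -1.03 to -0.47), or 1.68-fold lower (limma adjusted p = 0.000429, and 0.0127 with the pair term). Quantile normalization of the deposited values left a difference of -0.61 (limma adjusted p = 0.00225), and leaving out any 1 array kept the calls of Ocln and Tjp1 in the fit without the pair term. The same was not run with the pair term.

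Tjp3 and Cgn, the other scaffold genes, did not pass. Tjp3, the epithelial ZO family member, read 5.80 to 5.96 in cKO tumours and 5.84 to 5.99 in WT tumours, and its medians were 5.86 in cKO and 5.91 in WT. The difference of -0.05 had a 95% interval of -0.13 to 0.02 (limma adjusted p = 0.208). Cgn, whose product binds ZO-1 and actomyosin, read 4.85 to 5.27 in cKO tumours and 4.72 to 5.23 in WT tumours. Its difference of 0.11 (95% interval -0.09 to 0.31, limma adjusted p = 0.355) did not pass, and was 0.06 without WT replicate 8 and 0.17 without WT replicate 4.

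F11r, which encodes the immunoglobulin-like adhesion molecule JAM-A, read 6.62 to 7.22 in cKO tumours, with a median of 7.03, and 6.97 to 7.67 in WT tumours, with a median of 7.37. The groups overlapped, and only cKO replicates 2 and 9 lay below the lowest WT array. The means were 7.00 ± 0.19 in cKO and 7.33 ± 0.24 in WT tumours, a difference of -0.34 (95% interval -0.58 to -0.09). The limma adjusted p was 0.0258 without the pair term and 0.117 with it. The call was lost after quantile normalization (-0.23, limma adjusted p = 0.111) and without WT replicate 4, 7 or 8 (limma adjusted p = 0.0528, 0.0568 and 0.0501).

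**Figure D2:**
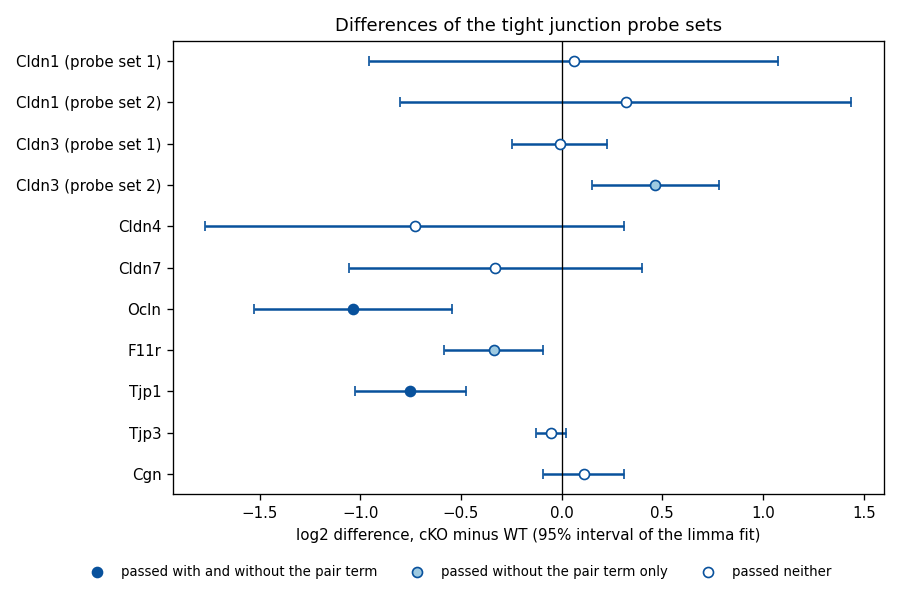
Log2 difference, cKO minus WT, of each of the 11 probe sets, shaded by the tests passed. Bars are the 95% interval of the limma fit without the pair term. Ocln (-1.04) and Tjp1 (-0.75) passed with and without the pair term, and the intervals of Cldn1 and Cldn4 are the widest.

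The 4 claudin genes went no common way. Claudins form the paired strands themselves, and claudin-1 is the one without which the mouse epidermal barrier fails after birth. Cldn1 probe set 2 (1450014_PM_at) read 6.82 to 9.97 in cKO tumours, with a median of 8.94, and 7.55 to 9.04 in WT tumours, with a median of 8.45. The cKO arrays lay on both sides of the WT arrays, with 3 of 7 above the highest WT array and 2 below the lowest. The means were 8.62 ± 1.24 in cKO and 8.30 ± 0.60 in WT tumours, a difference of 0.32 with a 95% interval of -0.80 to 1.44 (limma adjusted p = 0.64). Single arrays moved it, to 0.09 without cKO replicate 9 and 0.62 without cKO replicate 8. Cldn1 probe set 1 (1437932_PM_a_at) put the cKO arrays in almost the same order, spanned 5.30 to 7.90 in cKO and 5.63 to 7.22 in WT tumours, and differed by 0.06 (95% interval -0.96 to 1.07), or -0.17 without cKO replicate 5 and 0.26 without cKO replicate 8.

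Cldn4 and Cldn7 are claudins of simple and stratified epithelia, and both had lower means in cKO tumours without passing. Cldn4 read 6.50 to 9.22 in cKO tumours, with a median of 8.04, and 7.37 to 10.02 in WT tumours, with a median of 8.71. The difference of -0.73 had a 95% interval of -1.77 to 0.31 (limma adjusted p = 0.227), and was -0.48 without WT replicate 9 and -1.01 without WT replicate 8. Cldn7 read 4.80 to 6.34 in cKO tumours, with a median of 5.39, and 5.23 to 6.99 in WT tumours, with a median of 5.60. Its difference of -0.33 (95% interval -1.06 to 0.40, limma adjusted p = 0.44) was -0.09 without WT replicate 6, its highest array. Both intervals reach beyond a log2 difference of -1, so a fall of that size in either gene was not excluded.

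The probe sets of Cldn3 disagreed. Cldn3 and Cldn4 lie next to each other in the mouse annotation, with no annotated gene between them. Cldn3 probe set 2 (1451701_PM_x_at) read 4.71 to 5.81 in cKO tumours, with a median of 5.10, and 4.56 to 4.79 in WT tumours, with a median of 4.69. On 6 of 7 cKO arrays it lay above the highest WT array. The difference of 0.47 (95% interval 0.15 to 0.78) had a limma adjusted p of 0.0191, and 0.0977 with the pair term. It is no larger than the largest difference of a hybridisation control (0.49), and the x in the probe set's name marks probes that can match other transcripts too. Cldn3 probe set 1 (1426332_PM_a_at) lay under the controls' quartile of 4.29 on 5 of 7 cKO and 5 of 6 WT arrays, and differed by -0.01 (95% interval -0.25 to 0.23).

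The promoters of the genes that passed in either fit are shown for the E-box CACCTG. Snail family repressors, which are known to act on occludin and claudin genes, bind this motif. Snai2 fell and Snai1 rose here (values below), and a link of either to the members was not tested. The sequences are from RefSeq (GRCm38.p6) and run 5′ to 3′ on the gene's own strand, from 250 bases before to 50 after an annotated start. Capitals mark CACCTG on either strand. The Ocln window (chr13:100552449-100552748, minus strand) held 2 matches, at -213 and -68 from the start. The F11r window (chr1:171437311-171437610, plus strand) held 1 at -122 and the Cldn3 window (chr5:134985964-134986263, plus strand) 1 at 32. The Tjp1 window (chr7:65371195-65371494, minus strand) held no match.
Ocln: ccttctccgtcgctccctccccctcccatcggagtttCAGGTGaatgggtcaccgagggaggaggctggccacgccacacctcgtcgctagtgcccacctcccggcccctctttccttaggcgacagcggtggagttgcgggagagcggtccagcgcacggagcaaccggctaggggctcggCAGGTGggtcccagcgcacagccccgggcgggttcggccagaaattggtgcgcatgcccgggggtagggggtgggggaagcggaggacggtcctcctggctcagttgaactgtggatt
F11r: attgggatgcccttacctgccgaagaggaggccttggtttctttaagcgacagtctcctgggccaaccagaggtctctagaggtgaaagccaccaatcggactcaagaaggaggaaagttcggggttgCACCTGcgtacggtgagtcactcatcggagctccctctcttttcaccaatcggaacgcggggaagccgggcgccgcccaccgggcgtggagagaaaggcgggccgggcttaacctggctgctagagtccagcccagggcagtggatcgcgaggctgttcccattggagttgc
Cldn3: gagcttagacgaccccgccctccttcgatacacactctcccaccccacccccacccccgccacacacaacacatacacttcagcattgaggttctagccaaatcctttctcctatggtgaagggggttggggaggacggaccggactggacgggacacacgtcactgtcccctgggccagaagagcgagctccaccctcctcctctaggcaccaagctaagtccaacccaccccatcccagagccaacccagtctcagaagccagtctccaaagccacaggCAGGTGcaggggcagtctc
Tjp1: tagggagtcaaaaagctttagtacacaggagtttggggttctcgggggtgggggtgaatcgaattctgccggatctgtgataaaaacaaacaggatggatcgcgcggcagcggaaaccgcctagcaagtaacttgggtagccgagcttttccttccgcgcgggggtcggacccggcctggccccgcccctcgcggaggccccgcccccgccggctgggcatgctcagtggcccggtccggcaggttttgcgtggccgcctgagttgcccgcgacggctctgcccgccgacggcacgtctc
All 9 genes had a promoter in the table, in 12 windows, since Ocln, Cldn7 and Tjp3 have more than 1 annotated start. A match to CACCTG was found in 8 of the 12 windows, or in 6 of the 9 genes (Ocln, F11r, Cldn3, Cldn4, Cldn7 and Tjp3), against 20.2% of all 32851 windows of 300 bases. The windows of Ocln overlap and share a match, which is counted in both. The 20.2% is a share of windows, and no share of genes was worked out. The palindromic Grainyhead-like motif AACCGGTT was in 0 of the 12 windows and in 0.146% of all, and its relaxed form AACNNGTT was in 1, that of Cgn, and in 4.2% of all windows. Of the genes with a match, Ocln fell, and F11r (lower) and 1 probe set of Cldn3 (higher) passed without the pair term only. Cldn4, Cldn7 and Tjp3 did not pass, and Tjp1, which fell, has no match in this window. Whether a match is bound was not tested.

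Tumour by tumour, the claudins of the cKO group split in a way that the group means do not show. Cldn1 (probe set 2) read 8.94, 9.37, 9.89 and 9.97 in cKO replicates 1, 2, 5 and 9, and 7.54, 7.80 and 6.82 in replicates 3, 6 and 8. Cldn7 went the other way, with 6.34, 5.98 and 5.97 in cKO replicates 3, 6 and 8, and 5.39, 4.80, 4.92 and 4.82 in replicates 1, 2, 5 and 9. Cldn4, Tjp1 and both Cldn3 probe sets also had their 3 highest cKO values in replicates 3, 6 and 8. In each, replicate 8 was the lowest of these 3 and stood near the next cKO array. It read 8.22 against 8.04 for Cldn4 and 7.47 against 7.31 for Tjp1. For Cldn3 it read 5.13 against 5.10 (probe set 2) and 4.10 against 4.07 (probe set 1).

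The same tumours differed in keratins. Krt8 and Krt18, keratins of simple epithelia that are known from progressed skin carcinomas, were high in cKO replicates 3, 6 and 8, where Krt8 read 8.20, 8.41 and 8.39, against 6.72, 5.45, 5.37 and 5.26 in replicates 1, 2, 5 and 9. Krt10, a keratin of differentiating layers, read 6.28, 6.90 and 6.98 in replicates 3, 6 and 8, and 8.20, 10.07, 9.15 and 8.96 in the others. Jam2, a relative of F11r best known from endothelium, had 8.15, 7.91 and 7.64 in replicates 3, 6 and 8, and 6.29, 4.81, 4.95 and 5.05 in the others. The endothelial marker Pecam1 read 7.67, 8.20 and 7.89 in replicates 3, 6 and 8, and 7.77, 7.30, 7.00 and 7.32 in the others, while the endothelial claudin gene Cldn5 read 4.42 to 4.70 over all cKO arrays. The part of endothelial cells in the Jam2 values was not tested. In WT tumours replicate 7 shared part of this pattern, with the highest Krt8 (8.40), Krt18 (8.62), Jam2 (6.85) and Tjp1 (8.42), the second highest Cldn4 (9.63) and the lowest Krt10 (7.10). It differed in Cldn1 (8.73, the second highest) and in Cldn7 (5.26, the second lowest). Each mirrored pair of cKO arrays holds 1 of replicates 3, 6 and 8 and 1 of 2, 5 and 9, so a high value in one comes with a low value in its neighbour by the form of the deposit. The 7 values are therefore not 7 separate readings, no correlation is given, and this split was chosen after the values were seen and has no test.

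**Figure D3:**
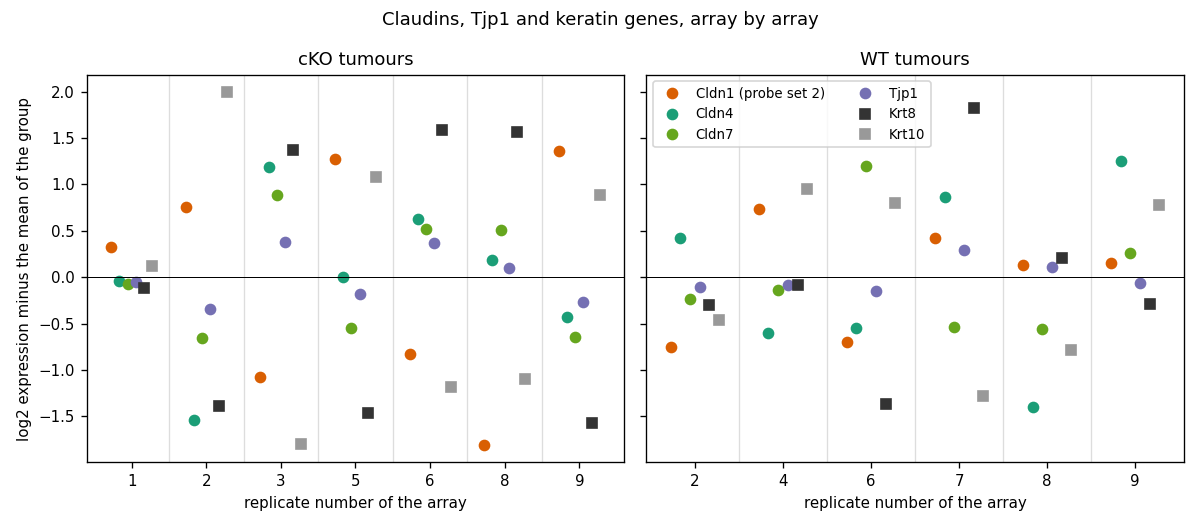
Log2 expression minus the mean of the group for Cldn1 (probe set 2), Cldn4, Cldn7 and Tjp1 (circles) and Krt8 and Krt10 (squares), for each array by replicate number in cKO (left) and WT (right) tumours. In cKO replicates 3, 6 and 8 Krt8, Cldn4, Cldn7 and Tjp1 lie above 0 and Cldn1 and Krt10 below it.

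For the other tight junction genes, counts are read against all genes, of which 46.5% passed (20.4% lower and 26.1% higher), and 26.2% with the pair term (11% lower and 15.2% higher). Groups did not overlap, with cKO below, in 8.86% of genes. Genes are read here by their probe set of highest mean, and the median difference of all genes was 0.02. Of 16 further claudin genes measured, 4 passed as lower and 2 as higher, and 3 and 0 with the pair term. Their median difference was 0.01, and 6 of them stayed under 4.29 on every array. Cldn12, which lacks the usual claudin anchor for ZO proteins, fell: it read 7.29 to 7.98 in cKO and 7.86 to 8.83 in WT tumours, a difference of -0.75 (limma adjusted p = 0.00238, and 0.0293 with the pair term), and its other probe set differed by -0.56. Cldn22 fell by 0.36 and Cldn19 fell by 0.27, and Cldn19 lay near the control quartile (4.11 to 4.25 in cKO and 4.37 to 4.54 in WT tumours). Cldn15 (0.17) and Cldn16 (0.09) passed as higher without the pair term only.

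Proteins of the corners where 3 cells meet went both ways. Marveld2, the gene of tricellulin and a relative of Ocln, read 6.16 to 7.04 in cKO and 6.77 to 7.33 in WT tumours, a difference of -0.51 that passed without the pair term only (limma adjusted p = 0.0149, and 0.0801 with it). Lsr, which encodes angulin-1, the protein that brings tricellulin to those corners, differed by 0.36, and Marveld3 by 0.20, also without the pair term only. The other Marveld3 probe set differed by 0.07 and did not pass. Ildr2, of the angulin family too, rose by 0.22 (limma adjusted p = 8.62e-05). In all, 3 of these 5 genes passed as higher and 1 as lower. In the JAM family, Esam rose by 1.18, and Jam3 rose by 0.17 on its probe set of highest mean. The other Jam3 probe set differed by 0.05 and did not pass. Igsf5 differed by -0.10 (without the pair term only), and 3 of 6 genes did not pass, Jam2 (0.86, limma adjusted p = 0.275) among them. Esam, an adhesion molecule of endothelial cells and platelets, read 5.57 to 6.04 in cKO and 4.22 to 5.21 in WT tumours, and endothelial markers moved with it (values below), a link that was not tested.

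Scaffolds and polarity proteins act at the same junctions. Of 10 other scaffold genes, 2 passed as higher and 0 as lower on the probe set of highest mean. Other probe sets changed this picture. Mpdz (-0.26) and Amotl1 (-0.18) did not pass on it. Their others were all lower (-0.80 and -0.29 for Mpdz, -0.27 and -0.12 for Amotl1), with at least 1 passing for each gene. Cgnl1 (0.19) and Magi1 (0.39) did not pass either, but each had another that passed as lower. Their others ranged from -0.13 to 0.70 and from -0.17 to 0.25. Amot, which encodes angiomotin, rose by 0.41 on its probe set of highest mean, and its other probe sets differed by -0.37 and 0.10. Magi3 differed by 0.32 on its probe set of highest mean, but its other probe sets passed in the opposite direction (-0.31 and -0.25), so no direction is given for the gene. Of 12 polarity and signalling genes, 2 passed as higher and 2 as lower, and 0 and 1 with the pair term. Crb3, the apical polarity protein Crumbs-3, differed by 0.46 and Pard6a by 0.22, and Pard6g by -0.18, all without the pair term only. The other Pard6g probe set differed by 0.02 and did not pass. Of 5 claudin partners and membrane proteases, Spint1, an inhibitor of the protease matriptase, was lower by 0.34 without the pair term only, and Epcam, which binds claudin-7, did not pass (0.30, limma adjusted p = 0.223).

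Regulators known to act on junction genes were read next. Of 12 genes, 4 passed as lower and 2 as higher, and 2 and 1 with the pair term. One of the 4, the repressor gene Zeb1, has no settled direction: it differed by -0.08 on its probe set of highest mean, and another probe set passed as higher (0.91). Zeb2, which did not pass on its probe set of highest mean (-0.08), also had another that passed as higher (0.30). Snai2, a repressor of epithelial genes, fell, with 6.60 to 6.90 in cKO and 7.98 to 8.40 in WT tumours, a difference of -1.42 (limma adjusted p = 3.08e-08). Snai1, its close relative, rose by 0.29, with 4.33 to 4.52 in cKO and 4.00 to 4.25 in WT tumours (limma adjusted p = 0.000114), near background in both groups. Elf3, an epithelial transcription factor, fell by 0.98, with 5.72 to 6.64 in cKO and 6.82 to 7.52 in WT tumours. The Grainyhead-like genes, activators of junction genes, differed: Grhl3 was lower by 0.68 and Grhl2 higher by 0.21, both without the pair term only (limma adjusted p with it 0.0589 and 0.0778).

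**Figure D4:**
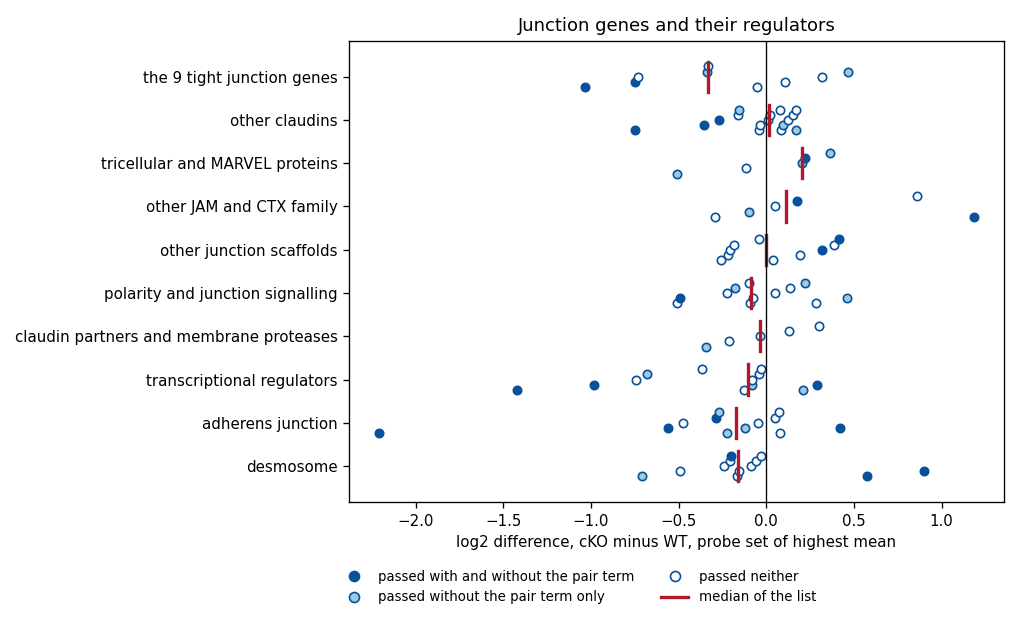
Log2 difference, cKO minus WT, of each measured gene (probe set of highest mean) by list, shaded by the tests passed, with the median of each list as a red bar. The median of the 9 tight junction genes is -0.33, and those of the other 7 tight junction and regulator lists lie between -0.10 and 0.20.

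Adherens junctions and desmosomes, the other junctions of the same cells, gave a background for the 9 genes, of which 3 passed as lower and 1 as higher (2 and 0 with the pair term), with a median of -0.33. Among all genes 20.4% passed as lower and 26.1% as higher (11% and 15.2% with the pair term). Of 12 adherens junction genes, 6 passed as lower and 1 as higher (3 and 1 with the pair term), with a median of -0.17. Cdh1 (E-cadherin) fell by 0.56 and Ctnnb1 (β-catenin) fell by 0.29 on its probe set of highest mean, while its others differed by -0.10 and -0.06 and did not pass. Nectin3 fell (-2.21 on its probe set of highest mean, and -1.40 to -0.07 on its 4 others), while Nectin1 rose by 0.42. Of 12 desmosome genes, 2 passed as lower and 2 as higher (1 and 2 with the pair term), with a median of -0.16. Dsp (desmoplakin) fell by 0.20 on its probe set of highest mean, while its others (-0.14 and 0.04) did not pass, and the plakophilin gene Pkp2 was 0.58 higher by one probe set, with -0.002 by its other. Of the desmogleins, Dsg1b differed by -0.71 (without the pair term only), and Dsg1a rose by 0.90, though 4 of 6 WT arrays read it below the median of the nonspecific controls. The difference between these lists was not tested.

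Basal keratins were near the top of the scale in both groups, and fibroblast and endothelial markers were higher in cKO tumours (counts below, against 26.1% higher and 20.4% lower among all genes). Krt5, a basal keratin, read 12.72 to 12.78 in cKO and 12.55 to 12.67 in WT tumours, and rose by 0.13. Krt14, another basal keratin, read 12.11 to 12.34 in cKO and 12.27 to 12.45 in WT tumours. It differed by -0.12, without the pair term only. Trp63 did not pass on its probe set of highest mean (0.18), but 1 of its 3 others passed as lower. Those others ranged from -0.83 to 0.03. Of 6 basal markers 1 passed as higher and 1 as lower, and their summed level (log2 of the sum) was 14.39 to 14.57 in cKO and 14.40 to 14.50 in WT tumours. Of 7 general epithelial markers 0 passed as higher and 3 as lower, with summed levels of 12.83 to 13.01 in cKO and 12.91 to 13.14 in WT tumours. Of 6 suprabasal markers 1 passed as higher, at background (Flg), and the summed level ran from 9.41 to 11.57 in cKO and from 10.16 to 10.71 in WT tumours.

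Fibroblast markers (5 of 7 higher) summed to 9.90 to 11.05 in cKO and 7.59 to 9.18 in WT tumours, and endothelial markers (5 of 7 higher) to 8.69 to 9.52 in cKO and 7.27 to 8.53 in WT tumours. Macrophage markers (2 of 7 higher and 1 lower) summed to 7.83 to 8.42 in cKO and 7.63 to 7.97 in WT tumours, and T cell markers (2 of 5 higher and 1 lower) to 7.66 to 7.77 in cKO and 7.48 to 7.65 in WT tumours. Adipocyte (1 of 2 higher), muscle (1 of 5 higher) and melanocyte markers (1 of 4 higher and 2 lower) had summed levels that overlapped between the groups. In bulk tumours fewer cells of a type and less RNA per cell cannot be told apart. With the mean of the basal markers as a covariate, Ocln differed by -1.09 (limma adjusted p = 0.00312) and Tjp1 by -0.71 (limma adjusted p = 0.0012). With the fibroblast and macrophage means as covariates, which themselves follow genotype, the differences were -1.83 for Ocln and -1.03 for Tjp1, neither of which passed (limma adjusted p = 0.0667 and 0.096).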

How the data were processed

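The authors deposited RMA values on the log2 scale, 1 per probe set, per the submitters' processing notes. No source names a version or a step after RMA. Per the labels' protocols, 25 ng of RNA was amplified with 17 cycles and 8 µg of cDNA was labelled. Of 45141 rows, 104 are array controls. Of the rest, 28898 have 1 gene symbol in the platform annotation, 551 several and 15588 none.

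The other 45037 probe sets entered a linear model with moderated variance (limma 3.58.1, under R 4.3.3, with no covariate and no filter), two-sided, cKO minus WT, with Benjamini-Hochberg adjustment over all of them and a threshold of 0.05. The pair term gives each neighbouring pair its own level, with cKO replicate 1 alone, and so the residual spread is that between the arrays of a pair. For Ehmt2 an exact permutation test was run too. Intervals are 95%. Precision is limited by how many arrays there are. The members, the lists and the pair term were chosen with earlier results of these data known.

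Epcam, Jam2, Cldn5, Pecam1, Zeb1, Zeb2, Trp63, Flg, Mpdz, Amotl1, Cgnl1, Magi1 and the keratins were named after their values were seen. The other named genes outside the members are up to 3 called genes with the largest increase and 3 with the largest decrease per list. One polarity gene that this rule names, which passed with the pair term too, is not reported here. Alternatives were median centring, quantile normalization, filters on dim probe sets (25th and 50th percentile), 1 value per gene, another prior, weighting of arrays, a block for the replicate number, the pair term, covariates of cell makeup, each array left out and a threshold of 0.01. Figures were drawn with matplotlib 3.10.9.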

Additional observations from a re-analysis of the deposited data

Results flagged for a closer look

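Among 86 groups of array values looked at for the members and the named genes, 1 held an array that stood apart: Nectin3 in WT replicate 9, at 8.88, against 8.02 in the next highest WT array. Chance would flag about 1 in 20 such groups if the arrays were independent. The neighbouring arrays mirror each other, so this rate need not hold here.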

How the results depend on the processing

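The 3 member probe sets lower in cKO tumours were between 2 and 4 under the alternatives other than the fibroblast and macrophage covariates, with which 0 passed. The 1 higher (Cldn3) was 0 with the filter at the 50th percentile, the mean over probe sets of a gene, the replicate block, the pair term with and without quantile normalization, the fibroblast and macrophage covariates, and an adjusted p of 0.01. Of all probe sets, 21565 passed (limma), against 12169 with the pair term, 11295 with it after quantile normalization, 8955 with the replicate block, 4141 with the fibroblast and macrophage covariates and 9936 of the 22519 left by the 50th percentile filter. Of 17097 genes, 7830 passed by the highest-mean probe set and 7884 by the mean over probe sets, each fitted and adjusted over those genes alone. The 46.5% of genes given above (7956) comes from the fit over all probe sets. Leaving out each array gave 19362 to 20914.

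With the replicate block, Ocln and Tjp1 passed (limma adjusted p = 0.0226 and 0.0337) and F11r did not (0.186). Tumours that share a number did not deviate together (correlations of -0.283 to 0.054 in 4 shared numbers), so the number is not taken as a pairing. Tjp3 passed with array weights (-0.11) and with the basal keratinocyte covariate (-0.08). The other Ehmt2 probe set differed by 0.24 after quantile normalization (limma adjusted p = 0.0138). The causes were not tested. Median centring moved the median of all probe sets by less than 0.1.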
